A study of Xenopus laevis with 4 samples.

Results

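Chromatin regulators are the enzymes and structural proteins that modify histones, methylate DNA, move nucleosomes or read such marks. The genes described here carried names of 11 families on the Xenopus laevis array: the deacetylases (hdac and sirt), the remodelling subunits and helicases (smarc and chd), the lysine demethylases (kdm), the lysine and arginine methyltransferases (kmt, setd and prmt), the chromodomain proteins (cbx), the DNA methyltransferases (dnmt) and the bromodomain proteins (brd). They were chosen by symbol alone, as every probe set with a single platform symbol that began with 1 of these names followed by a digit, or by a letter for smarc. This gave 58 of 15491 non-control probe sets, which stood for 47 symbols, counting the homeologous copies on the long (.L) and short (.S) subgenomes as separate genes. The symbol rule also took in genes whose products act outside chromatin, among them the sirtuins that are mitochondrial in mammals. RNA from vegetal cortices dissected by hand out of collagenase-treated, full-grown stage VI oocytes was compared with RNA from intact stage VI oocytes, and the labels name no other treatment. Each group held 2 arrays, 1 for each of 2 donor females, with cortices and intact oocytes of a replicate taken from the same female per the labels, although the description of the second cortex sample repeats the numbers of the first. Cortices were frozen in batches, so each array averages many oocytes, and a change in some oocytes cannot be told apart from a smaller change in all. Genotype and age of the females were not used here.

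A full-grown oocyte carries its future embryo through the cleavage divisions with stored RNA and protein. Chromatin regulators are part of that store: deacetylases, remodelling complexes and histone or DNA methyltransferases act on the sperm and egg genomes after fertilization, before the embryo transcribes its own genes. The vegetal cortex, a thin layer under the membrane of the yolk-rich hemisphere, anchors a restricted set of RNAs that act in germ cell formation and embryonic patterning. The comparison asks whether RNAs of chromatin regulators were concentrated in, or scarce at, that layer.

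The values were MAS5 signals, a linear fluorescence measure per probe set, already scaled to a common mean on each array, so a change is measured against all other RNAs in that sample. Trimmed means over all probe sets were between 1500.1 and 1500.2 on the 4 arrays, and across the tested probe sets log2 signals correlated at 0.84 between the cortex arrays and 0.94 between the whole oocyte arrays. Of 11 tested probe sets for markers of the vegetal cortex 10 were called higher in it, and all 11 had both cortex arrays above both whole oocyte arrays. The genes of this list also belong to the germ plasm and vegetal list below, taken with earlier results of these arrays known. The counts therefore do not test the dissection. All 18 probe sets for markers of full-grown oocytes passed the signal limit, and 2 were called higher in cortices, lsm14b.L and dazl.L. Markers of follicle and stromal cells were mostly dim, with 12 of 20 probe sets under the limit, and their summed signal was 55948 and 52409 in cortices against 33063 and 33223 in whole oocytes. The only probe set of the list called was 1 of cyp17a1.L, a steroid hydroxylase gene (adjusted p = 0.0168). It had 28863 and 16553 in cortices against 4187 and 5881 in whole oocytes. In the first female its excess in the cortex was larger than that of the summed signal, and in the second female it was smaller. The cells that made the RNAs of this list, that of cyp17a1.L included, were not tested, so the sum does not by itself measure follicle RNA. The part of follicle RNA in the results below was not tested either. Of 12 probe sets for blood markers 11 were under the limit, and so were the 6 for liver and yolk precursor markers.

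No chromatin regulator passed the test in either direction. The test took in probe sets whose signal averaged 271.5 or more over the arrays (the 40th percentile), and 47 of the 58 members, for 41 symbols, reached it. By limma on log2 signals, 0 were higher and 0 were lower in the vegetal cortex at an adjusted p under 0.05, where 3.31% of all 9295 tested probe sets were higher and 0% were lower. At an unadjusted p under 0.05, 2 members were higher (cbx2.L and a smarcd1.L probe set) and 1 was lower (sirt4.L), against 8.02% and 4.62% of all tested probe sets. The smallest change called anywhere in the table was a 2.45-fold increase, and no smaller one passed with these 4 arrays. No decrease of any size passed, with log2 changes down to -2.96 among all tested probe sets. The members' adjusted p-values began at 0.164.

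The members lay near the middle of the table. Their median log2 change was -0.15, with the middle quartiles from -0.43 to 0.13, against -0.20 for all tested probe sets. Relative to that general median 27 members were above and 20 below. A change of less than 2-fold was estimated for 45 of the 47 members (95.7%), against 88.3% of all tested probe sets, and 42 members (89.4%, against 74.4%) also stayed under 2-fold within each female. Both cortex arrays lay above both whole oocyte arrays for 3 members, cbx2.L, smarcd1.L and kdm3a.S, which is 6.38% against 14.7% of all tested probe sets. They lay below them for 14 members, 29.8% against 31.8%. The 95% interval of the change excluded a 4-fold increase in the cortex for 45 members (95.7%, against 91.4% of all tested probe sets). It excluded a 2-fold increase for 30 of the 47 members, against 6211 of all 9295 tested probe sets. The whole interval lay inside a 2-fold change either way for only 7 members (14.9%, against 12.9%). The exceptions to the first count were cbx2.L, with an upper bound of 2.56 on the log2 scale, and setd6.L, with 2.09. For comparison, the germ plasm and vegetal RNAs, a list taken with earlier results of these arrays known, had a median log2 change of 2.93, with 19 of 21 tested probe sets called. A list of animal hemisphere RNAs, taken in the same way, had a median of 0.00, and 0 of its 15 tested probe sets were called lower in the cortex by limma, with 1 lower at an unadjusted p under 0.05.

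**Figure D1:**
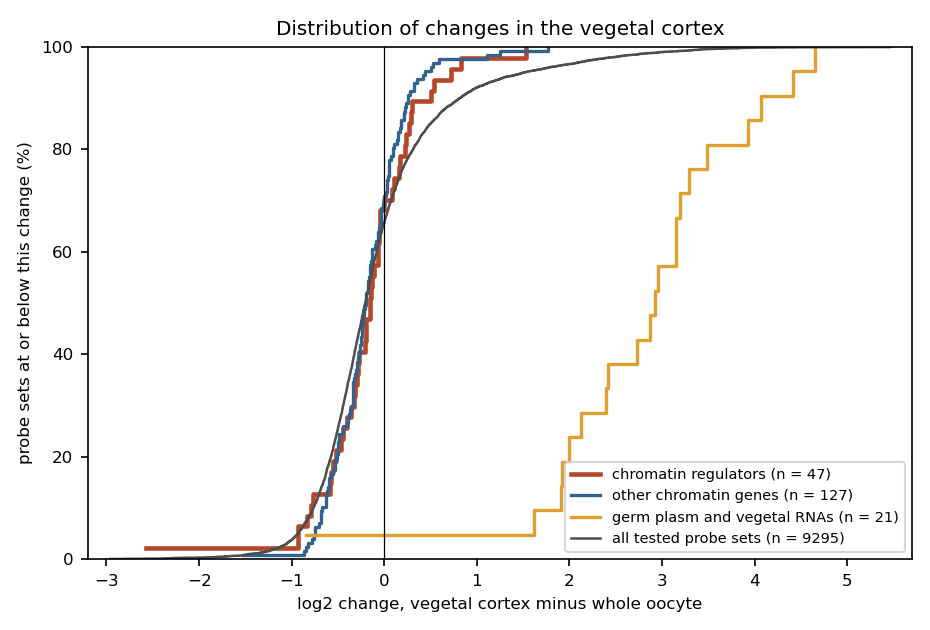
Cumulative share of probe sets (y axis, percent) at or below each log2 change, vegetal cortex minus whole oocyte (x axis), for 47 chromatin regulator probe sets, 127 probe sets of other chromatin genes, 21 of germ plasm and vegetal RNAs and all 9295 tested. The chromatin regulators lie near the curve of all tested probe sets at its middle, with medians of -0.15 and -0.20. Their highest change is 1.53, where that of all tested probe sets is 5.47. The vegetal RNAs lie to the right with a median of 2.93.

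**Figure D2:**
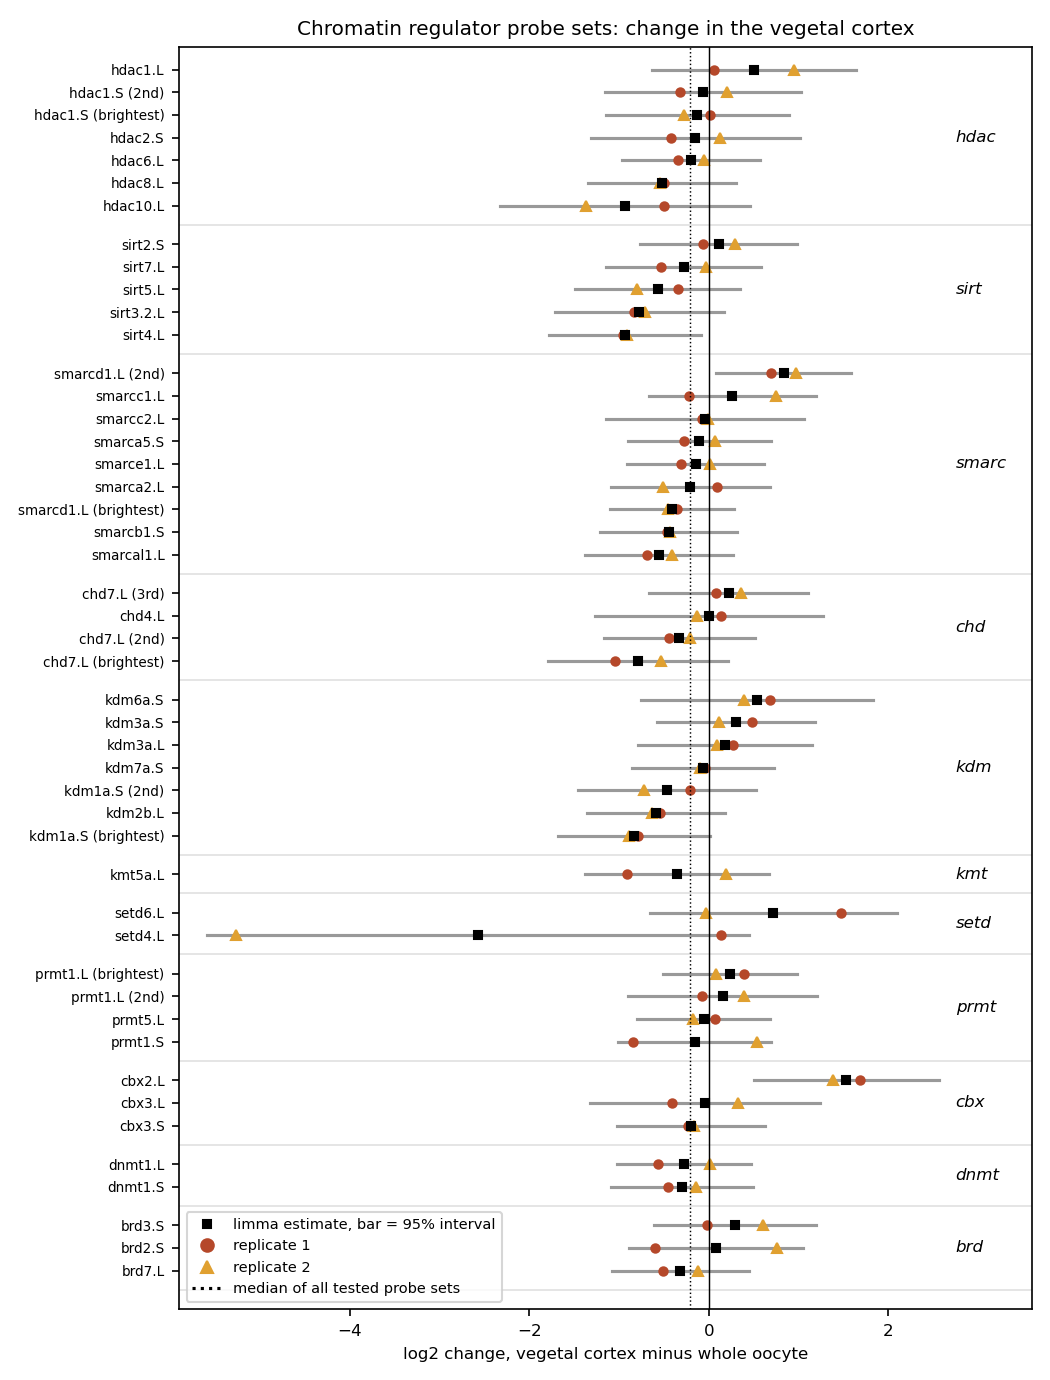
Log2 change, vegetal cortex minus whole oocyte (x axis), of the 47 tested chromatin regulator probe sets, by family. Squares are limma estimates with bars for the 95% interval, circles and triangles are the changes within replicates 1 and 2, and the dotted line is the median of all tested probe sets (-0.20); cbx2.L lies farthest right (1.53) and setd4.L farthest left (-2.57), where the triangle alone is far from 0.

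Among the classical deacetylases, a family named for enzymes that remove acetyl groups from histone tails, none of 7 tested probe sets passed. hdac10.L, which in human cells encodes a polyamine deacetylase, was the lowest at signals of 329 and 108 in vegetal cortex replicates 1 and 2, against 471 and 311 in whole oocyte replicates 1 and 2 (log2 change -0.93 ± 0.61 SE, adjusted p = 0.543). The second cortex array was the lowest of the 4, and the groups overlapped. The cortex signals averaged less than the signal limit, so the probe set entered the test through its whole oocyte signals. Leaving out the first cortex array gave a log2 change of -1.66 that passed (adjusted p = 0.0174, where the alternatives ranged up to 0.999), and leaving out the second gave -0.21. hdac8.L, a class I enzyme, had 2413 and 1842 in cortices against 3408 and 2690.3 in whole oocytes, lower in both females by a similar amount (-0.49 in the first female and -0.54 in the second), without overlap. Its change of -0.52 ± 0.36 SE did not pass (adjusted p = 0.562). hdac6.L, whose product deacetylates tubulin in the cytoplasm, had 6619.6 and 5553 in cortices and 8408 and 5752 in whole oocytes (log2 change -0.20 ± 0.34 SE). The genes of the nuclear class I enzymes HDAC1 and HDAC2 were all within 2-fold. hdac1.L had 526 and 486 in cortices against 507 and 242 in whole oocytes, where the second whole oocyte array was the low one. The brighter of the hdac1.S probe sets had 3098 and 1585 against 3071 and 1920.2, and hdac2.S 956 and 600.5 against 1285 and 551, so that for both genes the first female's arrays were high in cortex and whole oocyte alike.

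The sirtuins, deacylases that use NAD, held the member with the lowest change shared by the females, though none of 5 tested probe sets passed. sirt4.L, a mitochondrial enzyme in mammals, had signals of 839 and 728 in cortices against 1646 and 1388 in whole oocytes. Both cortex arrays lay below both whole oocyte arrays by nearly the same amount, -0.96 in the first female and -0.91 in the second, which is 1.91-fold lower overall (log2 change -0.93 ± 0.37 SE, adjusted p = 0.356). A second, dimmer sirt4.L probe set was under the signal limit, at 208 and 132 in cortices against 362 and 230.3 in whole oocytes, and was not tested. sirt3.2.L, of the branch whose mammalian member is the main mitochondrial deacetylase, had 3717 and 2344 in cortices against 6652 and 3851 in whole oocytes (-0.84 in the first female and -0.71 in the second). It was lower in the cortex of each female, while the second female's arrays were lower in both groups (log2 change -0.77 ± 0.41 SE, adjusted p = 0.476). Without the first cortex array it passed as lower (log2 change -1.10, adjusted p = 0.0481, with alternatives up to 0.999), and without the second its change was -0.44. sirt5.L, another mitochondrial enzyme in mammals, had 2147 and 1250.1 in cortices against 2722 and 2195 in whole oocytes (log2 change -0.57 ± 0.40 SE). sirt7.L, a nucleolar enzyme, had a log2 change of -0.28 ± 0.38 SE, and sirt2.S, a mostly cytoplasmic one, of 0.11 ± 0.38 SE. A difference between sirtuins of different compartments was not tested. Of the 5 tested sirtuin probe sets, 4 were below the median of all tested probe sets. Lower in both females were 4 of the 5, against 47% of all tested probe sets, counts from which no test follows.

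The remodelling genes encode subunits of machines that slide or evict nucleosomes using ATP. Of 9 tested smarc probe sets, 5 were above and 4 below the median of all tested probe sets, and none passed. The catalytic subunits stayed close to 0: smarca5.S, the ISWI ATPase that is abundant in frog eggs, had 2726 and 3719 in cortices against 3319 and 3539 in whole oocytes (log2 change -0.11 ± 0.35 SE), and smarca2.L, a SWI/SNF ATPase, had 1984 and 1232 against 1865 and 1759 (-0.21). smarcb1.S, a core SWI/SNF subunit, had 3959 and 3246 in cortices against 5459 and 4399 in whole oocytes, without overlap and with nearly the same change in each female (-0.46 in the first female and -0.44 in the second). smarcal1.L, a helicase of stalled replication forks, was lower in both females too (1590.3 and 1465 in cortices against 2575 and 1959 in whole oocytes, log2 change -0.55). The scaffold subunits smarcc1.L and smarcc2.L and the HMG-box subunit smarce1.L had log2 changes of 0.26, -0.04 and -0.15, all with overlapping groups.

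The accessory subunit gene smarcd1.L was measured by probe sets with opposite directions. Its dimmer probe set had 4817 and 5025 in cortices against 2970.1 and 2552 in whole oocytes, 1.78-fold higher, with replicates close together (log2 change 0.83 ± 0.33 SE, adjusted p = 0.351). Its brighter probe set had 5799 and 5555 in cortices against 7429.9 and 7619.7 in whole oocytes, lower in both females (-0.36 in the first female and -0.45 in the second). The change of the brighter minus that of the dimmer probe set was -1.24 ± 0.26 SE on the log2 scale. That difference had an adjusted p = 0.558 over the 716 symbols with at least 2 tested probe sets, of which 0% passed, in a comparison added after the data were seen. A direction for this gene was therefore not given by the arrays.

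Of the chromodomain helicases, chd4.L, the ATPase of the NuRD deacetylase complex, had an estimate of 0 between cortex and whole oocyte, and its first female was higher in both groups. Signals were 1219 in the first cortex array and 490.0 in the second, against 1111 and 538 in the whole oocyte arrays, a log2 change of 0.00 ± 0.55 SE with the 95% interval from -1.27 to 1.27. chd7.L, a helicase needed by neural crest cells, was measured by 3 probe sets. The brightest had 1336 and 983 in cortices against 2787 and 1430.0 in whole oocytes (log2 change -0.79 ± 0.44 SE, adjusted p = 0.492). The next had 956 and 950.1 against 1306 and 1106 (-0.33), and the dimmest 841 and 1114 against 793 and 866 (0.22), so that the probe sets did not share a direction. The brightest and the next did not differ past the threshold (difference -0.46 ± 0.43 SE, adjusted p = 0.996).

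Lysine demethylases erase histone methyl marks, and the directions of their 7 tested probe sets were split by gene. Each had the same direction in both females, as had 6297 of all 9295 tested probe sets. Leaving out 1 array reversed the direction of kdm3a.L, kdm6a.S and kdm7a.S. kdm1a.S, which encodes the demethylase LSD1 of the CoREST complex, had 953 and 1151 in cortices against 1655 and 2142 in whole oocytes for its brighter probe set. No array of one group reached the other, and the changes were -0.78 in the first female and -0.88 in the second (log2 change -0.83 ± 0.37 SE, adjusted p = 0.402). The dimmer kdm1a.S probe set also had the cortices below the whole oocytes, at 399 and 381 against 466 and 642 (log2 change -0.47 ± 0.43 SE). kdm2b.L, a CpG-binding partner of Polycomb proteins, had 2104 and 1977 in cortices against 3089 and 3073 in whole oocytes. Replicates were close together, the groups did not overlap, and the log2 change was -0.59 ± 0.34 SE (adjusted p = 0.501). On the other side were kdm6a.S and the tested probe sets of both copies of kdm3a. kdm6a.S, which removes the Polycomb mark, had 496 and 1002 in cortices against 302 and 759 in whole oocytes. The second female was above the first in both groups, by more than the cortex was above the whole oocyte, and the groups overlapped (log2 change 0.54 ± 0.56 SE). kdm3a.L had 2920.3 and 4689 in cortices against 2427 and 4418 in whole oocytes (0.18), and kdm3a.S had 1009 and 822 against 717 and 755 (0.30). A dimmer kdm3a.S probe set, under the signal limit and not tested, went the other way in both females. It had 113 and 39.2 in cortices against 123 and 82.7 in whole oocytes, with overlapping groups. kdm7a.S had a log2 change of -0.07 ± 0.35 SE, a value that became 0.01 with quantile normalization and 0.06 with arrays centred on the median.

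**Figure D3:**
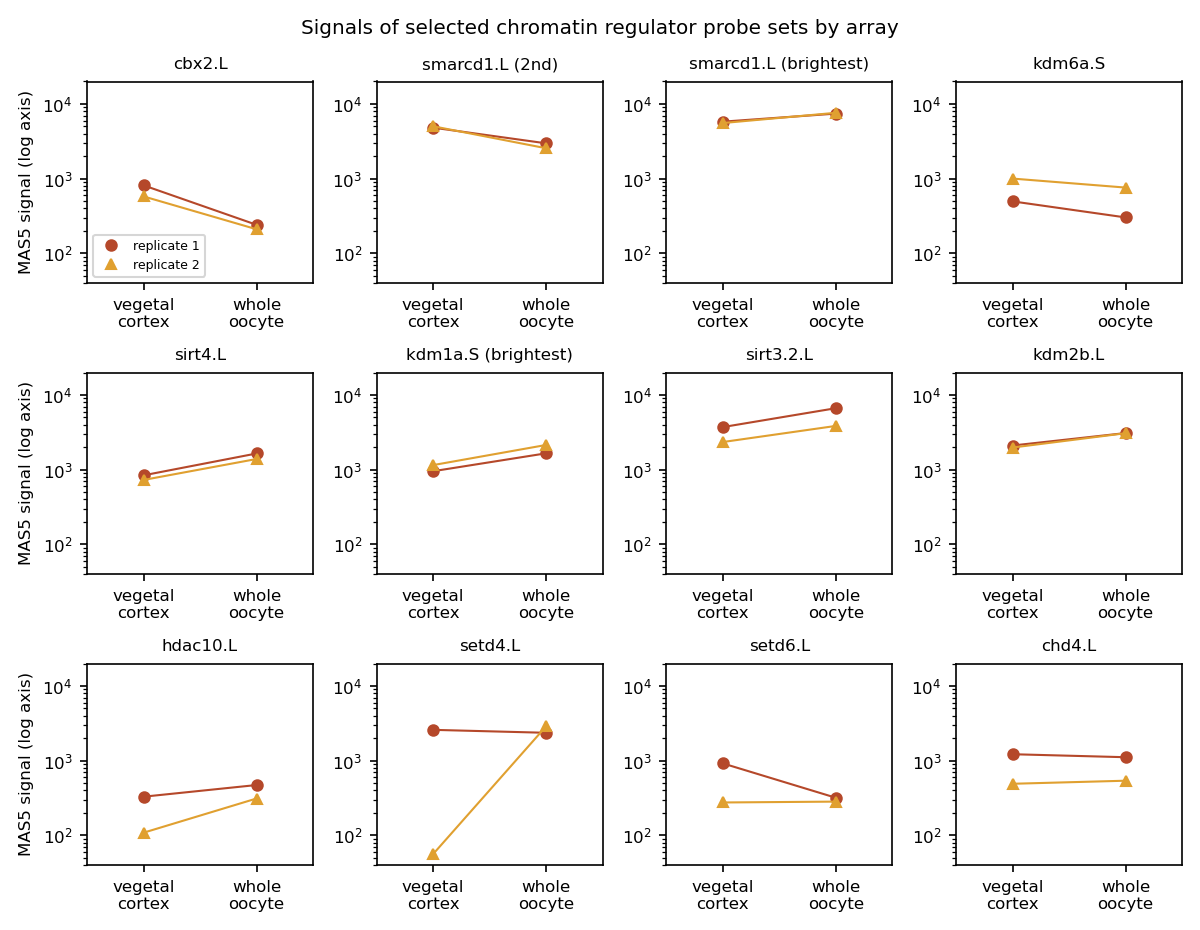
MAS5 signals (y axis, log scale) of 12 chromatin regulator probe sets, with vegetal cortex left and whole oocyte right in each panel, and 1 line per replicate, joining samples of the same female. cbx2.L and the dimmer smarcd1.L probe set are higher in both cortices, sirt4.L, kdm1a.S, sirt3.2.L and kdm2b.L are lower in both, none past the test, and in setd4.L the second cortex array alone (56.3) stands apart.

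Of the lysine methyltransferases, 1 of 4 kmt and 2 of 2 setd probe sets were bright enough to test, and none passed. setd4.L had the lowest log2 change of all members, -2.57 ± 1.31 SE (adjusted p = 0.467), and it rested on 1 array. Its signals were 2585 and 56.3 in cortices against 2360.1 and 2893 in whole oocytes, so the second cortex array lay far below the other 3, which were close to each other. Without that array the log2 change was -0.02, and without the other cortex array it was -5.13, which passed (adjusted p = 8.75e-23, with alternatives up to 0.988). setd6.L, whose human protein methylates a subunit of the NF-kappaB factor, had the opposite pattern, with 918 and 275 in cortices against 318 and 283 in whole oocytes. Here the first cortex array was the high one (log2 change 0.72 ± 0.60 SE), and the change was 1.55 (adjusted p = 0.0292, with alternatives up to 0.999) without the second cortex array and -0.12 without the first. kmt5a.L, which places the first methyl group on lysine 20 of histone H4, had 409 and 728 in cortices against 784 and 634 in whole oocytes, with opposite directions in the females (-0.91 in the first female and 0.19 in the second).

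None of the 4 tested probe sets of arginine methyltransferases passed the test. prmt1.L, the main enzyme of asymmetric arginine methylation, had 22906 and 31040.3 in cortices against 17406 and 29460.5 in whole oocytes (log2 change 0.24 ± 0.33 SE, 95% interval -0.51 to 0.98). Its direction turned to -0.22 with quantile normalization. prmt1.S had 8432 and 15546 in cortices against 15196 and 10710.0 in whole oocytes, lower in the cortex of the first female and higher in that of the second (-0.85 in the first female and 0.54 in the second). prmt5.L, which methylates arginines of histones and storage chaperones symmetrically, had 4221 and 4159.8 in cortices against 4012 and 4719 in whole oocytes. The 4 arrays were close together, and its 95% interval, -0.79 to 0.69, excluded a 2-fold change either way. In the main fit all 4 tested prmt probe sets, for 3 symbols, lay above the median of all tested probe sets, with log2 changes from -0.16 to 0.24. With quantile normalization prmt1.L lay below that general median, which was no lower than -0.214 in any alternative that kept all 4 arrays.

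The Polycomb chromodomain gene cbx2.L had the highest log2 change among the members, and did not pass. Its protein binds the methyl mark set by Polycomb complexes and compacts chromatin. Signals were 813 and 578 in cortices against 241 and 210.0 in whole oocytes, so both cortices were above both whole oocytes, by 1.68 in the first female and 1.38 in the second. This is 2.89-fold higher (log2 change 1.53 ± 0.45 SE, 95% interval 0.50 to 2.56), with an unadjusted p = 0.00886 and an adjusted p = 0.164. Without the second cortex array it passed (log2 change 1.77, adjusted p = 0.00785, with alternatives up to 0.878). The whole oocyte signals alone were under the signal limit, so the probe set entered the test through its cortex signals. The heterochromatin protein genes cbx3.L and cbx3.S had estimates near the general median. cbx3.L had 8352 and 27739 in cortices against 11119 and 22067 in whole oocytes, with the second female high in both groups (log2 change -0.04 ± 0.56 SE, and 0.09 with arrays centred on the median). cbx3.S had 4201 and 6229 in cortices against 4922 and 6995 in whole oocytes (-0.20 ± 0.36 SE).

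dnmt1, the maintenance DNA methyltransferase that copies methylation onto new strands during cleavage, was bright from both homeologs. dnmt1.L had 9235 and 15113 in cortices against 13689 and 14982 in whole oocytes (log2 change -0.28 ± 0.32 SE), and dnmt1.S had 9773 and 16630.2 against 13404 and 18344 (-0.30 ± 0.35 SE). In both copies the first cortex array was the lowest of the 4. Over the alternatives that kept all 4 arrays the change ranged from -0.52 to -0.15 for dnmt1.L and from -0.57 to -0.17 for dnmt1.S. The bromodomain genes, whose products read acetylated histones, had log2 changes of 0.29 ± 0.39 SE for brd3.S, 0.08 ± 0.42 SE for brd2.S and -0.32 ± 0.33 SE for brd7.L. brd3.S had 5961 and 11882 in cortices against 6049 and 7843 in whole oocytes, with the second cortex array the highest. brd2.S had 1262 and 1897 in cortices against 1916 and 1115 in whole oocytes, opposite in the females (-0.59 in the first female and 0.76 in the second). brd7.L, a subunit of a SWI/SNF complex, had 3599 and 3665 in cortices against 5145 and 3984 in whole oocytes, without overlap.

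Probe sets of homeologous copies did not differ past the threshold in their change. Whether the probe set of a copy also measured RNA of the other copy was not tested. Both copies were tested for 5 member genes, and the change of the .L copy minus that of the .S copy was 0.63 ± 0.50 SE for hdac1 (95% interval -0.53 to 1.80), 0.39 ± 0.44 SE for prmt1 (-0.62 to 1.40) and 0.16 ± 0.44 SE for cbx3 (-0.86 to 1.17). It was -0.13 ± 0.52 SE for kdm3a (-1.32 to 1.07) and 0.02 ± 0.30 SE for dnmt1 (-0.68 to 0.72). None of the 5 passed limma at an adjusted p under 0.05, where 0.943% of the 636 homeolog pairs of the table did. At an unadjusted p under 0.05 none of the 5 passed either, against 59 of the 636. Only for dnmt1 was the whole interval inside a 2-fold difference.

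For several members, cbx3.L and chd4.L among them, the females stood farther apart than cortex and whole oocyte did. The difference of replicate 2 minus replicate 1 had the same sign in cortices and in whole oocytes for 33 of the 47 members (70.2%), against 64.2% of all tested probe sets. By limma with group and replicate in the fit, a comparison added after the data were seen, 0 members and 0% of all tested probe sets passed, with 10 members at an unadjusted p under 0.05 beside 6.16% of all tested probe sets higher and 8.05% lower in replicate 2. cbx3.L was higher in replicate 2 by 1.36 ± 0.27 SE on the log2 scale (adjusted p = 0.338) and kdm6a.S by 1.13 ± 0.33 SE. chd4.L had a difference of -1.15 ± 0.31 SE and hdac2.S of -0.92 ± 0.32 SE. Female and the handling of each replicate cannot be told apart.

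**Figure D4:**
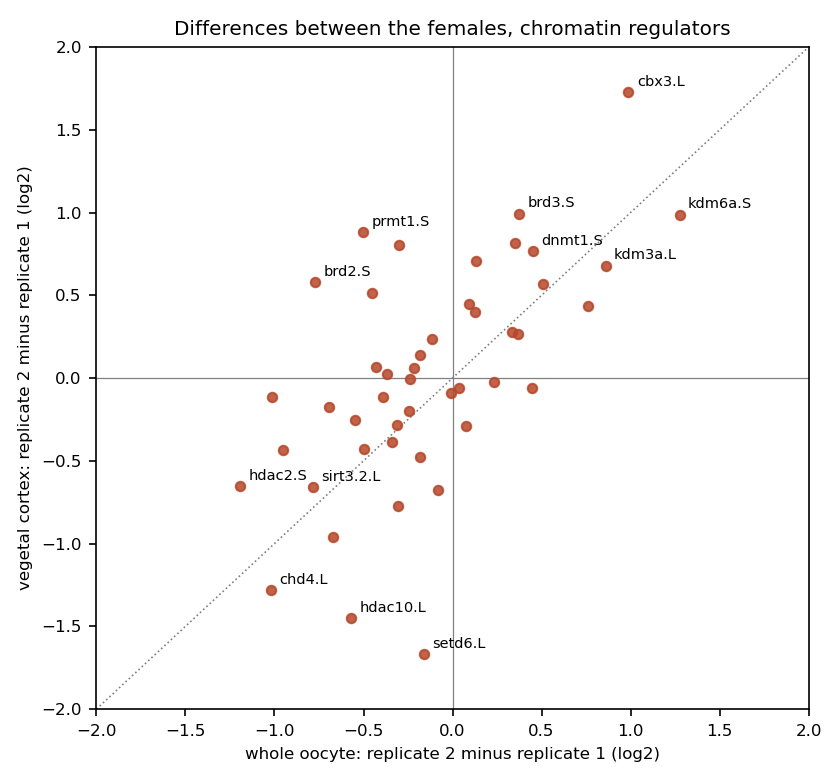
Replicate 2 minus replicate 1 on the log2 scale in vegetal cortices (y axis) and in whole oocytes (x axis) for 46 tested chromatin regulator probe sets (setd4.L, at -5.11 in cortices, lies outside the axes). cbx3.L and kdm6a.S lie at the upper right and chd4.L and hdac2.S at the lower left, so the same female was higher in both kinds of sample.

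The 7 lists of partners and related enzymes held 127 tested probe sets for 102 symbols, with a median log2 change of -0.20. Of the 127, 1 was called higher and 0 lower, where 3.31% of all tested probe sets were called higher and 0% lower. ring1.L, which encodes a ubiquitin ligase of Polycomb complexes, rose in the cortex, with 1614 and 1539 in cortices against 495 and 407 in whole oocytes (3.41-fold, log2 change 1.77 ± 0.38 SE, adjusted p = 0.0477). Both cortices were well above both whole oocytes, and the changes were 1.67 in the first female and 1.87 in the second. The call did not hold without whole oocyte replicate 1 (adjusted p = 0.295), without whole oocyte replicate 2 (0.468), with dim probe sets kept in (0.0966) or with the offset at the 25th percentile (0.0505). With the filter at the 60th percentile the probe set was too dim to be tested. Over the alternatives its adjusted p ranged from 0.00476 to 0.468. The other 18 tested Polycomb probe sets did not pass, and eed.S, a subunit of the Polycomb methyltransferase, was the lowest of them, at 8320.4 and 6091 in cortices against 13623 and 12068 in whole oocytes (log2 change -0.85 ± 0.31 SE, adjusted p = 0.312).

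The remaining lists had no called member. Partners of NuRD, Sin3 and CoREST ranged from a probe set of ncor1.S, a corepressor gene (-0.63, and 0.055 for its other tested probe set), to gatad2a.S, a NuRD subunit gene, at 1108 and 2334 in cortices against 854 and 632 in whole oocytes (log2 change 1.11 ± 0.46 SE). The homeolog gatad2a.L went the other way in both females, with 1073 and 523 in cortices against 1245 and 1082 in whole oocytes (log2 change -0.62 ± 0.45 SE). For gatad2a.S the second cortex array was the high one. Without it the change was 0.58, and without the first it was 1.64 and passed (adjusted p = 0.0064, with alternatives up to 0.920). Other histone methyltransferases and their partners ranged from setdb1.L (-0.70), a silencing methyltransferase, to hcfc1.S, a host cell factor gene, at 456 and 689 in cortices against 216 and 232 in whole oocytes (log2 change 1.25 ± 0.46 SE, adjusted p = 0.323). The whole oocyte signals of hcfc1.S averaged less than the signal limit, so it was tested through its cortex signals. Partners of the remodelling complexes ranged from ss18.L (-0.78), which was tested through its whole oocyte signals, to hells.L (0.59). Acetyltransferases ranged from hat1.L (-0.45) to a probe set of naa50.S (0.18), whose other tested probe sets had 0.092 and -0.175. DNA methylation genes ranged from mbd1.S, a methyl-CpG reader (-0.74), to a probe set of uhrf1.S, a partner of dnmt1 (0.35). The other 2 tested uhrf1.S probe sets had -0.23 and -0.14, so they did not share its direction. Among 47 probe sets of histone chaperones and variant or linker histones, the dimmer npm3.S probe set had the lowest change, -1.53 ± 0.71 SE, with 623 and 108 in cortices against 771 and 837 in whole oocytes. As with setd4.L the second cortex array was the low one, and without it the change was -0.36. Without the first cortex array it was -2.70 and passed (adjusted p = 5.34e-06, with alternatives up to 0.999). The brighter npm3.S probe set had a change of -0.09, with opposite signs in the females. The oocyte linker histone gene h1-8.S had the highest, with 4133 and 11824 in cortices against 6121 and 5078 in whole oocytes (log2 change 0.33 ± 0.48 SE).

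The 11 probe sets below the signal limit had signals between 14.0 and 362 on single arrays and were not tested. They were the only probe sets of 6 symbols, the heterochromatin genes cbx1.S and cbx5.S, the deacetylase gene hdac9.S, and the histone H4 methyltransferase genes kmt5a.S, kmt5b.L and kmt5b.S, and the dimmer probe sets of kdm3a.S, sirt4.L, smarcal1.L and smarcc2.L. cbx5.S had 228 and 288 in cortices against 297 and 189 in whole oocytes, and kmt5b.L 124 and 180.3 against 132 and 187. When dim probe sets were kept in, all 58 members were tested and 0 passed.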

How the data were processed

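RNA of vegetal cortices and of whole stage VI oocytes (100 ng of total RNA per sample, 2 amplification cycles) was measured on 1-colour Affymetrix arrays, 2 per group. The deposited values were linear intensity signals per probe set, made by the authors with MAS5 per the submitters' processing notes, with the version not given in the sources used here. Of 15611 probe sets 120 were controls and were left out. The platform annotation gave 9304 probe sets 1 symbol, 195 several and 5992 none, and 9227 of the single symbols were found in the gene table of assembly Xenopus_laevis_v10.1.

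From the deposited intensities, log2 values were computed after adding 19.1, the 10th percentile, and probe sets with a mean signal under 271.5, the 40th percentile, were left out. limma 3.58.1 in R 4.3.3 (lmFit and eBayes, with a trend on mean signal and with 6.22 prior beside 2 residual degrees of freedom) compared the groups, with Benjamini-Hochberg adjustment over all 9295 tested probe sets and a threshold of 0.05. Its procedure was tested on simulated data. Fold changes are on the log2 scale with the offset and understate changes of dim probe sets. The SE is limma's, and the 95% intervals come from the same fit. The number of arrays limits the precision. The p-values rest on the spread between 2 females within each group. Given the prior degrees of freedom, they rest more on the variance estimated over all tested probe sets. The main fit did not pair samples of the same female.

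Same-numbered samples share a donor female per the labels, and their deviations from the group means correlated at 0.35. The title gave the second cortex sample its number. Differences between homeologs used the brightest tested probe set of each copy. The comparison of replicates and that of probe sets of 1 symbol were added after the data were seen. The members were chosen by symbol alone and the lists by name and role, but with earlier results of these data known. Genes were named by a rule: called members, the 8 probe sets with the largest change shared by both females in each direction, the 2 brightest of each family, and in other lists the called, or else the highest and lowest, genes. Further members are given to account for all of them and were picked after their values were seen. One probe set that names cbx3.L and cbx3.S together was not a member. The 12 alternatives were other offsets, filters and normalizations, no trend on mean signal, a replicate block and leaving out each array. Taking 1 probe set per symbol was run besides these, for the counts and the median of the members only.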

Additional observations from a re-analysis of the deposited data

How the results depend on the processing

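The members' median stayed between -0.29 and -0.02 under all alternatives run, and 0 members passed under every alternative that kept all 4 arrays. Without 1 array 0 to 2 members were higher and 0 to 3 lower, with 3 lower without vegetal cortex replicate 1 and 2 higher without vegetal cortex replicate 2. Over all tested probe sets 125 to 697 were higher and 0 to 673 lower without 1 array, namely 697 higher and 673 lower without vegetal cortex replicate 1, 666 and 38 without vegetal cortex replicate 2, and 125 or 140 higher without whole oocyte replicate 1 or 2. Quantile normalization called 1 lower. In such fits the lone array is assumed to vary like the other group, so their calls can be too many. Of the other chromatin probe sets 0 were higher with the offset at the 25th percentile, with no filter or with the filter at the 60th percentile, where ring1.L was not tested, and 0 to 5 were higher and 0 to 5 lower without 1 array, with 5 each without vegetal cortex replicate 1 and 0 higher without either whole oocyte array. With the replicate block, which pairs samples of the same female, 355 probe sets were higher, 0 lower and 0 members passed, and it changed no call among the named members. Of 363 values of the 31 named member probe sets over 12 alternatives, 335 kept direction and side of the threshold, 23 reversed and 5 passed it newly. Quantile normalization gave prmt1.L -0.22, kdm7a.S 0.0082 and the difference between the cbx3 copies -0.17, and centring on the median, which adds 0.13 to every change, gave cbx3.L 0.089 and kdm7a.S 0.062. Bright members also moved without a reversal while all 4 arrays were kept. The change ranged from -0.52 to -0.15 for dnmt1.L, from -0.57 to -0.17 for dnmt1.S and from -0.39 to -0.025 for prmt1.S. Leaving out 1 array reversed the log2 change of cbx3.L (-0.91 to 0.82), cbx3.S (-0.48 to 0.086), dnmt1.S (-0.68 to 0.085), dnmt1.L (-0.63 to 0.078), kdm7a.S (-0.24 to 0.10), kmt5a.L (-0.76 to 0.044), prmt1.S (-0.60 to 0.28), setd6.L (-0.12 to 1.55), naa50.S (-0.22 to 0.59), kdm3a.L (-0.25 to 0.61), brd3.S (-0.21 to 0.78), h1-8.S (-0.43 to 1.08), hells.L (-0.15 to 1.33), ncor1.S (-1.32 to 0.060), kdm6a.S (-0.10 to 1.17), prmt1.L (-0.14 to 0.61), hdac6.L (-0.47 to 0.076) and hdac1.L (-0.0029 to 1.01), and the difference between copies of dnmt1 (-0.14 to 0.18), kdm3a (-0.61 to 0.36), cbx3 (-0.43 to 0.74) and prmt1 (-0.24 to 1.02), each given as the lowest and highest value. The causes were not tested. Signal over background limits the 11 members under the signal limit, and 2 arrays per group limit every call to large changes.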
